A study of Homo sapiens with 6 samples.

Results

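The genes described here are 8 histone genes of the human lung carcinoma line NCI-H460: the linker histone gene H1-2, the H2A gene H2AC6, the H2B genes H2BC4, H2BC5, H2BC12 and H2BC21, and the H4 genes H4C3 and H4C8. They were chosen by their signals in CSC-rich and parental cells, which were known when the list was drawn up, so the differences between those populations are given for them as a description, without a test. All probes that the platform annotation assigns to these symbols were taken, 11 of 47323 probes on the array, and 7 of the 8 genes were detected on at least 2 arrays and entered the fit of 12101 genes. H2AC6 did not.

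NCI-H460 is a line of non-small cell lung cancer. Its spheroid culture gave the population that the labels call CSC-rich (cancer stem cell-rich), which was set against the parental line, labelled wild type. Each population was treated with PNAs-A15 (for 6 h), treated with a scramble (its time is not stated), or left as a control, called untreated here. That gave 6 groups of 1 array each. Both grew in RPMI medium, to which the labels add fetal bovine serum only in the parental culture, so effects of serum and of population cannot be told apart. The labels do not spell out PNAs-A15, and the CSC-rich array whose label shortens the name to PNA was taken as the same agent. Levels are intensities on an Illumina HumanHT-12 v4 array, background-corrected, quantile-normalized and on the log2 scale unless called signals, which are the deposited linear values. A probe counts as detected at a detection p under 0.05.

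Histones package DNA: pairs of H2A, H2B, H3 and H4 form the core that DNA wraps around, and linker H1 binds where DNA enters and leaves it. Most of their genes lie in clusters and are copied into RNA mainly in S phase, when new DNA must be packed, and the resulting mRNAs end in a conserved stem-loop, bound by SLBP, in place of a poly(A) tail. Several of these genes can also yield transcripts with a poly(A) tail, known from differentiated and non-cycling cells. The labels name a TotalPrep kit, which primes RNA from its poly(A) tail, so mRNAs without one are copied poorly. Neither the tails of these transcripts nor the division of the cells was measured.

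The promoters of 5 of these genes are shown first, because genes of the same family differed in their levels here: H4C8, H2BC5, H2BC12 and H2BC21 were higher in CSC-rich cells, and H2BC4 was lower. Each sequence is the 250 bases before the transcription start in RefSeq on GRCh38.p14, read 5′ to 3′ on the strand of the gene. Capitals mark matches on either strand to the octamer ATTTGCAT, a binding site of the factor Oct-1 in H2B promoters, to the CCAAT box (CCAAT) or to a TATA box (TATAAA), which may overlap. The windows are chr6:26285535-26285784 (minus strand) for H4C8, chr6:26157871-26158120 (plus strand) for H2BC5, chr6:27146859-27147108 (minus strand) for H2BC12, chr1:149886683-149886932 (minus strand) for H2BC21 and chr6:26123927-26124176 (minus strand) for H2BC4.
H4C8: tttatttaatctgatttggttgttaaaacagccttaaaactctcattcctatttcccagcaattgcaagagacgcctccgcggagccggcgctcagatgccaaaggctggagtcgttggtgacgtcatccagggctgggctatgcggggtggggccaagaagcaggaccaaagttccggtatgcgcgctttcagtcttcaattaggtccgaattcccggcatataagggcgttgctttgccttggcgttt
H2BC5: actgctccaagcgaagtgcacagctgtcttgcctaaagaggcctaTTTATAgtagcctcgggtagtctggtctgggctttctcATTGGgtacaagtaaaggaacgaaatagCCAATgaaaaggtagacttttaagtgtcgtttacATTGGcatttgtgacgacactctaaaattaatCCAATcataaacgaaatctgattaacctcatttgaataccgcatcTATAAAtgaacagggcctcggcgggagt
H2BC12: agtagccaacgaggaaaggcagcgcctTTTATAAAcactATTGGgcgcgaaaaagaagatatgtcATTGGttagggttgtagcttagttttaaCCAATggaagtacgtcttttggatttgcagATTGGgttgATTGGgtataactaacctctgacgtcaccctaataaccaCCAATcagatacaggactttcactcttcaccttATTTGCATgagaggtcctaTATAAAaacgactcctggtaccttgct
H2BC21: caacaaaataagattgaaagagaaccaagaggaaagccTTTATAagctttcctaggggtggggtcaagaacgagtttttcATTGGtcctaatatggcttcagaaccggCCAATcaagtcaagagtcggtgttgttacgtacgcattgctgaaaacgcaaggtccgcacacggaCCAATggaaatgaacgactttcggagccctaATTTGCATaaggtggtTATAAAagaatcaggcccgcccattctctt
H2BC4: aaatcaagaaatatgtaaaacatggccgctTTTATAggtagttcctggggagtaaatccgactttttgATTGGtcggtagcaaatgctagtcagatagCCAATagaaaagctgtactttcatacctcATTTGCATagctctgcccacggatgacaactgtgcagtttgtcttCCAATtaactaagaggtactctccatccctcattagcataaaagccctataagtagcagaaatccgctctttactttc

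The octamer stood 46 bases before the start in both H2BC12 and H2BC21 and 123 bases before it in H2BC4, and its letters were not found in the window of H2BC5. Of the H2B genes among the 8, 3 of 4 held it, against 1.66% of 27305 promoter windows of all genes. Among 57 windows of other replication-dependent histone genes, which mix the histone families, 38.6% held it. The share in other H2B genes alone was not counted. CCAAT was found in 4 of the 4 H2B windows of the 8 genes and in 33.0% of all windows. Of the windows of other replication-dependent histone genes 84.2% held it. TATAAA was found in 4 of 4, in 11.1% and in 66.7%. Its only match in the window of H2BC4 was on the opposite strand, 220 bases before the start. None of these letters was found in the window of H4C8. H2BC4 and H2AC6 are transcribed away from each other from starts 246 bases apart on chromosome 6, so their windows cover nearly the same bases. A match to a motif is a description and not evidence of binding.

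Linker histone H1-2 was read by 1 probe and detected on all 6 arrays. Its signal was 3169, 2498 and 4263 on the CSC-rich arrays with PNAs-A15, with scramble and untreated, against 2758, 1857 and 1817 on the parental arrays in the same order. On the log2 scale it averaged 11.64 ± 0.33 in CSC-rich and 10.94 ± 0.70 in parental cells (SD, n = 3 arrays each, of 3 treatments). The groups overlapped, because the parental PNAs-A15 array (11.74) lay above the CSC-rich arrays with PNAs-A15 (11.59) and with scramble (11.33). The difference between the populations was 1.43 in the untreated pair, 0.82 in the scramble pair and -0.15 in the PNAs-A15 pair. The fitted difference was 0.70, against 1.13 without the parental PNAs-A15 array and 0.34 without the untreated arrays.

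H2AC6, an H2A gene, was detected only on the untreated CSC-rich array. Its signal was 159.0, 99.0 and 159.9 on the CSC-rich arrays with PNAs-A15, with scramble and untreated, against 76.9, 105 and 102 on the parental arrays. These values lie at or below the detection limit, and no fold is given. H2BC4, the H2B gene that shares its promoter region, was detected on 2 of 3 CSC-rich and 3 of 3 parental arrays. Its signal was 159.7, 143 and 196 on the CSC-rich arrays in the same order, against 238, 225 and 232 on the parental arrays. Every CSC-rich array lay below every parental one, with means of 5.88 ± 0.41 in CSC-rich and 7.11 ± 0.78 in parental cells. The fitted difference was -1.24, and the pairs ranged from -2.27 to -0.48. It was -0.72 without the parental PNAs-A15 array and -0.49 on unnormalized signals. The CSC-rich signals of H2BC4, with detection p-values of 0.0065 to 0.11, lie close to the detection limit.

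H2BC5, an H2B gene, had 3 probes. The brightest, ILMN_1651496, gave 1310.2, 1226 and 1903 on the CSC-rich arrays with PNAs-A15, with scramble and untreated, against 284, 236 and 254 on the parental arrays. The groups stood far apart, at 10.40 ± 0.29 in CSC-rich and 7.37 ± 0.94 in parental cells, which is a fitted difference of 3.03 or 8.15-fold. In pairs it was 3.70 untreated, 3.63 with scramble and 1.75 with PNAs-A15. The pairs depended on the scaling. In the same order they were 3.60, 3.36 and 2.51 with arrays scaled to their medians, and 2.90, 2.38 and 2.204 on unnormalized signals. The fitted difference on unnormalized signals was 2.495. A further probe annotated to the same transcript, ILMN_1758623, was detected only on the untreated CSC-rich array (signal 177), and ILMN_1777405, annotated to another H2BC5 transcript, was not detected on any array (108 to 122). The level of H2BC5 therefore rests on 1 of 3 probes.

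H2BC12, also an H2B gene, had 2 probes. ILMN_1796179 gave 10628, 11277 and 12341 on the CSC-rich arrays with PNAs-A15, with scramble and untreated, against 9439, 6859 and 7295 on the parental arrays. All CSC-rich arrays lay above the parental ones, but by only 0.01 in the PNAs-A15 pair, against 1.12 in the scramble pair and 0.87 in the untreated pair. With arrays scaled to their medians the groups overlapped. The fitted difference was 0.67, and 0.44 without the CSC-rich scramble array. ILMN_1813314, annotated to the same transcript, gave 606, 235 and 526 on the CSC-rich arrays, against 198, 529 and 393 on the parental arrays. There the scramble pair went the other way, at -1.06, so the probes of H2BC12 differed in that pair in sign.

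**Figure D1:**
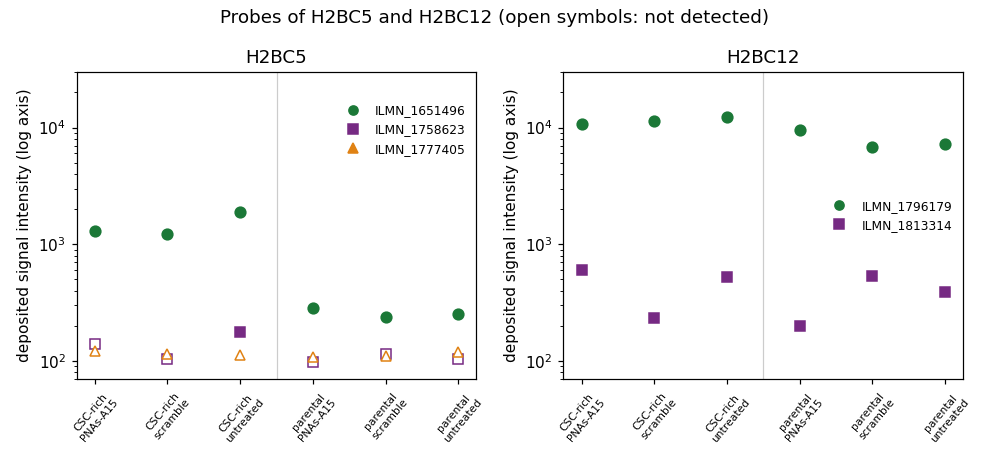
Deposited signal intensity (log axis) of the 3 probes of H2BC5 and the 2 probes of H2BC12 on each array, CSC-rich arrays to the left of the line and parental arrays to the right. Filled symbols were detected and open ones were not: 1 probe of H2BC5 separates the populations, and the probes of H2BC12 differ in their pattern.

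H2BC21, an H2B gene on chromosome 1, gave signals of 798, 807 and 1159 on the CSC-rich arrays with PNAs-A15, with scramble and untreated, against 303, 445 and 514 on the parental arrays. Each CSC-rich array was above each parental one. Means were 9.64 ± 0.30 in CSC-rich and 8.36 ± 0.28 in parental cells, and the pairs ranged from 0.77 to 1.61. This difference, 2.43-fold in the fit, was higher in CSC-rich cells under each of the 3 scalings (quantile, median scaling and none).

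The H4 genes encode the same core histone protein and went in opposite directions. H4C8 gave 661, 745 and 900.0 on the CSC-rich arrays with PNAs-A15, with scramble and untreated, against 115, 165 and 214 on the parental arrays. It was detected on all 3 CSC-rich arrays and, of the parental ones, only on the untreated array, so its fitted difference of 3.58 (11.9-fold) rests in part on levels below detection. In the untreated pair, where both arrays detected it, the difference was 2.91, and on unnormalized signals the fitted one was 2.26. H4C3 gave 9599.7, 7828 and 10712.5 on the CSC-rich arrays, against 37719, 40734 and 43466 on the parental arrays. It was the steadiest of the 7, at 13.22 ± 0.12 in CSC-rich and 15.29 ± 0.09 in parental cells, and its 3 pairs lay between -2.11 and -2.04, which is 4.19-fold lower in the fit. In such bulk RNA, fewer cells that express a gene and less RNA per cell cannot be told apart.

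**Figure D2:**
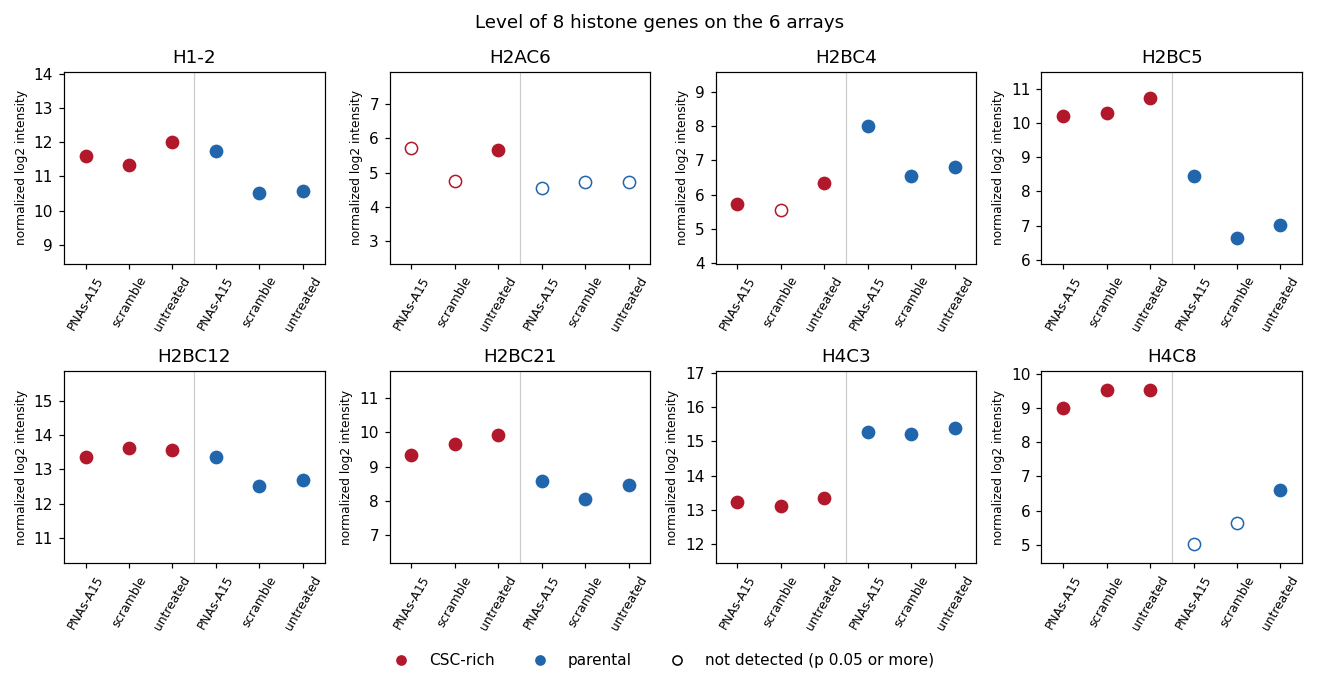
Normalized log2 intensity of the 8 histone genes on each array, with CSC-rich arrays in red to the left of the line and parental arrays in blue to the right. Every panel spans the same number of log2 units: H4C8 and H2BC5 are higher on all CSC-rich arrays, H4C3 is lower on all of them, and open symbols mark arrays where the probe was not detected.

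Across the 7 fitted genes the order of the differences was H4C8, H2BC5, H2BC21, H1-2, H2BC12, H2BC4 and H4C3, with 5 above 0 and 2 below, and the median was 0.70 against 0.0090 over all genes. Standard errors of these differences were 0.32 to 0.47, so neighbours in this order from H4C8 to H2BC5 and from H2BC21 to H2BC12 lay within about their errors. The groups did not overlap in 6 of the 7 (4 above and 2 below), and in 33.9% of all genes tested (16.7% above and 17.2% below). Since these values chose the genes, nothing is read from that count. In the same fit 2.31% of all genes passed an adjusted p of 0.05, 0.835% as higher and 1.47% as lower. Leaving out the parental PNAs-A15 array gave a median of the 7 of 1.13, which, as with all 6 arrays, is the value of H1-2. That fit also leaves the CSC-rich PNAs-A15 array without weight in this difference. The parental PNAs-A15 array stood apart from the others: 36.5% of its probes were detected against 38.5% to 42.8% elsewhere, and it correlated with them at 0.83 to 0.87 across genes.

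**Figure D3:**
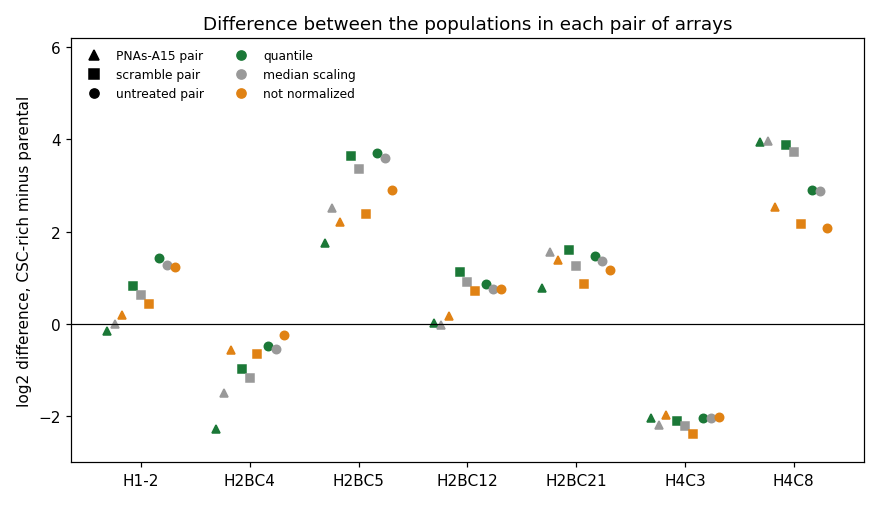
Log2 difference, CSC-rich minus parental, of 7 histone genes in the PNAs-A15, scramble and untreated pairs of arrays, under 3 scalings (colours). H4C8, H2BC5 and H2BC21 lie above 0 and H4C3 and H2BC4 below 0 in every pair and scaling, whereas H1-2 and H2BC12 reach 0 in the PNAs-A15 pair.

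Among the 7, the profiles most like each other over the 6 arrays were those of H1-2 and H2BC12, at a root mean square distance of 0.27 log2 units after centring each gene on its mean, and next H2BC12 and H2BC21 (0.37). H2BC4 and H4C3 were 0.64 apart. Of the other genes on the array, the nearest to H4C8 were BNIP3L (0.20), SEMA6A (0.28) and TMEM45A (0.30). The nearest to H2BC5 were AMDHD1 (0.21), KDM5B (0.26) and SVEP1 (0.27). The nearest to H4C3 were EXO1, CENPH (both 0.10) and SNORA62 (0.11), and to the mean of the 7 profiles SLC16A4, NFAT5 and GPRC5C (0.09 to 0.12). The median distance of a gene from H4C8 was 1.90, and no such median was taken for the other profiles. Centred profiles include the difference between the populations, by which the members were chosen. That difference was 3.45 in BNIP3L and 3.58 in H4C8, whose parental levels lie partly below detection. The nearest genes were picked as the smallest distances of all, so nothing is read from their closeness.

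The treatments were the comparison that had not been used to choose the genes. With 1 array per group, a treatment response in only parental or only CSC-rich cells counts partly as error and weakens its own test. In limma's additive fit of population and treatment, 0% of the 12101 genes passed an adjusted p of 0.05 for PNAs-A15 against scramble, for PNAs-A15 against untreated or for scramble against untreated, and none of the 7 histone genes did. At an unadjusted p under 0.05 there were 490 genes (4.05%), 450 genes (3.72%) and 1 gene (0.00826%), and 0 of the 7 in each. For PNAs-A15 against scramble the differences of the 7 ran from -0.56 ± 0.45 in H4C8 to 0.84 ± 0.57 in H2BC5 (SE), with adjusted p-values of 0.79 to 0.95. The 95% interval of H2BC5 ran from -0.53 to 2.21 and that of H4C3, the narrowest, from -0.84 to 0.999, so changes of 1 log2 unit or more in H2BC5 lie within it. The lowest adjusted p of the 7 was that of H4C8 for PNAs-A15 against untreated. The difference there was -1.04 ± 0.45 (limma's adjusted p 0.75 over all genes). It was -0.52 between the CSC-rich arrays and -1.56 between the parental arrays, where the PNAs-A15 array did not detect H4C8.

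Within the populations each difference compares single arrays and has no test. In parental cells with PNAs-A15, H2BC5, H2BC4 and H1-2 lay 1.79, 1.47 and 1.23 above scramble, and 3 of the 7 were at least 2-fold higher, against 2538 of 12101 genes (21%). These values shrank to 0.85, 0.56 and 0.88 with median scaling and to 0.27, 0.08 and 0.57 on unnormalized signals, where the median of all genes was -0.29 and -0.43, against 0.20 with quantile normalization. H2BC21 lay 0.53 above scramble there, but at -0.44 and -0.55 under those scalings. H4C3 was 0.04 above scramble there on the quantile scale, and H4C8 was detected on neither of these arrays. In CSC-rich cells the 7 differed from scramble by -0.53 (H4C8) to 0.26 (H1-2), and 0 of the 7 were at least 2-fold higher, against 6.39% of all genes. Against the untreated CSC-rich array all 7 lay below 0, between -0.60 (H2BC4) and -0.13 (H4C3), where the median of all genes was -0.02. The scramble array of CSC-rich cells lay below the same untreated array in 5 of the 7, with H2BC4 at -0.78, H1-2 at -0.66 and H2BC5 at -0.44, while H2BC12 (0.06) and H4C8 (0.0036) did not. Under median scaling and without normalization it lay below in all 7. These comparisons share the untreated array, and those of PNAs-A15 share the PNAs-A15 arrays.

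**Figure D4:**
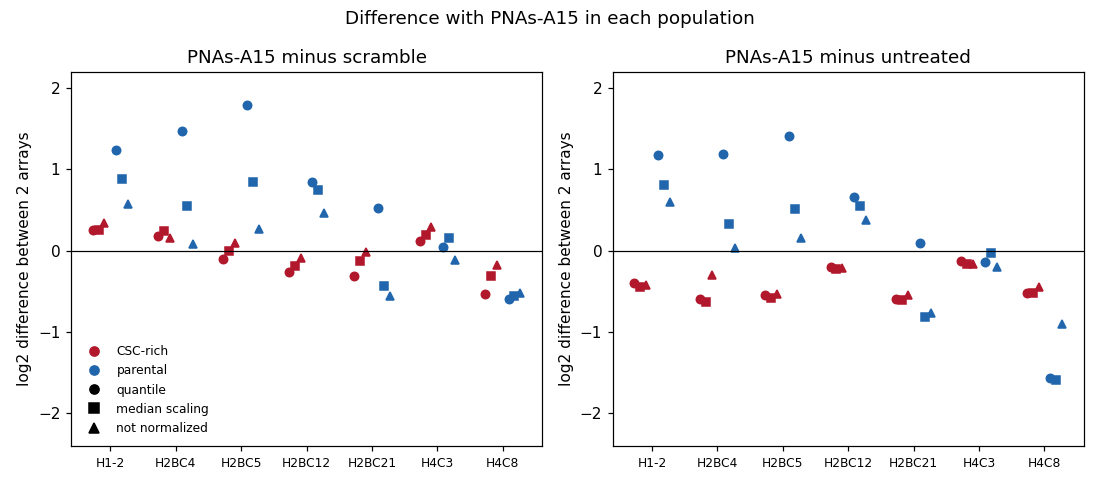
Log2 difference between single arrays for PNAs-A15 minus scramble (left) and PNAs-A15 minus untreated (right) in CSC-rich (red) and parental cells (blue), under 3 scalings (symbols). Parental values of H1-2, H2BC4 and H2BC5 depend on the scaling, while CSC-rich values of the 7 genes against untreated all lie below 0, as 5 of the 7 also did with scramble (not drawn) on the quantile scale.

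Other genes of histone supply were not members, and their differences between the populations were tested in the same limma fit. These lists, and those of proliferation and cell cycle exit, were also chosen with earlier results of these data known. Their shares of calls beside those of all genes are therefore a description. Of 62 other replication-dependent histone genes with a probe, 41 were not detected on any array, 13 on some and 8 on all. Among the 18 that entered the fit 0 passed an adjusted p of 0.05, against 2.31% of all genes. Of these 18, 4 (H1-3, H2AC17, H3C12 and H4C11) were detected on no CSC-rich array and entered through parental arrays, which fixes them as lower. The 8 detected on all 6 arrays lay between -1.39 (H2AC20) and -0.03 (H3C6). Without the parental PNAs-A15 array 3 of the 18 were called, all lower, where 8.73% of all genes were called lower and 10.5% higher. These 3 are named after their values were seen: the H2B gene H2BC9 (-1.96), the H2A gene H2AC20 (-1.14) and the H4 gene H4C12 (-0.999). With all 6 arrays H2BC9 lay at -2.72 ± 0.52 (SE, adjusted p 0.054). Its level was 4.93, 5.83 and 6.02 on the CSC-rich arrays with PNAs-A15, with scramble and untreated, against 9.17, 7.91 and 7.86 on the parental arrays, and 1 of 3 CSC-rich arrays detected it. The highest of the 18, the H4 gene H4C5, also named after its value was seen, lay at 0.45 ± 0.32 (adjusted p 0.49).

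Of 12 listed histone variants, whose genes are not tied to replication in the same way, 11 were measured. Against 2.31% of all genes, 1 of these 11 passed the threshold. That was CENPA, the centromeric H3 variant, which was lower at -4.84 ± 0.32 (SE, limma's adjusted p 0.0073) and was detected on 1 of 3 CSC-rich arrays. H2AZ1, an H2A variant at gene starts, lay at -0.77 ± 0.33, and H3-3B, which encodes the variant H3.3, at -0.86 ± 0.33 (adjusted p 0.27 and 0.23). H3-3A, which encodes the same protein, lay at 0.04 ± 0.32 (adjusted p 0.97). The list median was -0.64, and the highest member by its brightest probe, MACROH2A2, lay at 0.62 ± 0.32 (adjusted p 0.34). The probes of the variant MACROH2A1 differed: the brightest lay at -0.16, ILMN_1746171 at 0.55 and ILMN_1674034, detected on 5 arrays, at 2.05. Its probe ILMN_2275437 was not detected. Without the parental PNAs-A15 array, H2AX, the variant marked at DNA breaks, was also called, at -2.85, which makes 2 of 11 called as lower, against 8.73% of all genes. Histone genes of one family are near-identical in their coding sequence, and whether their probes also bind transcripts of relatives was not tested, since probe sequences were not used here.

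Histone chaperones, which carry histones to DNA, were lower past the threshold in 4 of 22 genes and higher in 0. Of all genes 1.47% were called lower and 0.835% higher. The 4 were ASF1B (-3.17 ± 0.33), CHAF1A, the large subunit of the chromatin assembly factor CAF-1 (-2.66 ± 0.35), HJURP, the chaperone of CENPA (-2.54 ± 0.32), and NASP (-1.89 ± 0.35), with limma's adjusted p between 0.0099 and 0.048. ASF1A, the paralog of ASF1B, lay at 1.22 ± 0.51 (adjusted p 0.27). The list median was -0.44. Leaving out the CSC-rich scramble array left 1 call, where 0.636% of all genes were called lower and 0.0826% higher, and unnormalized signals left 0.

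Genes that act in histone gene transcription and at the 3′ end of histone mRNA gave 0 calls of 26 measured, against 2.31% of all genes. The list median was -0.24. SLBP, the stem-loop binding protein, had levels of 10.84, 11.07 and 11.003 on the CSC-rich arrays with PNAs-A15, with scramble and untreated, against 11.17, 11.49 and 11.52 on the parental arrays. The groups did not overlap, but the difference of -0.42 ± 0.32 had an adjusted p of 0.51. NUDT21, a subunit of the cleavage factor that chooses poly(A) sites, was at 11.59 to 12.52 on the CSC-rich arrays and at 11.96 and 12.37 on the parental scramble and untreated arrays. The parental PNAs-A15 array, which stood apart from the others, did not detect it (5.02). The fitted difference was 2.30 ± 1.21 (SE, limma's adjusted p 0.35). Any part of NUDT21 in the histone levels was not tested. NPAT, which activates histone genes at the start of S phase, was detected on 1 array and was not fitted. Without the parental PNAs-A15 array 4 of the 26 were called: CDK2 (-1.33), SYMPK (-1.52) and LSM10 (-1.04) as lower and HINFP, a factor that binds H4 promoters, as higher (1.10). That is 3 of 26 lower and 1 of 26 higher, against 8.73% and 10.5% of all genes in that fit, so nothing is read from it about these genes.

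The proliferation state was read from 36 genes of DNA replication and mitosis, a list drawn up with earlier results of these data known. In CSC-rich cells 20 of the 35 measured passed as lower and 0 as higher, against 1.47% and 0.835% of all genes. The list median was -2.45. No CSC-rich array detected MKI67, the Ki-67 antigen, which puts it at least 6.30-fold lower in those cells. MKI67 is among the 20 but entered the fit through parental arrays alone, which fixes it as lower. Nothing is therefore read from its call (limma's adjusted p 0.034). CDC6, also detected on no CSC-rich array, entered the same way and is not among the 20 (-1.11 ± 0.38, limma's adjusted p 0.19). The largest of the 20 were the mitotic kinase AURKB (-5.24 ± 0.51), detected on 2 of 3 CSC-rich arrays, the mitotic kinesin KIF20A (-5.01 ± 0.34), BIRC5 (survivin, -4.72 ± 0.34) and CCNB2 (cyclin B2, -4.51 ± 0.32). TK1 (thymidine kinase) lay at -4.19 and TOP2A (topoisomerase II alpha) at -3.64, whereas PCNA, the sliding clamp of replication, lay at -0.93 ± 0.35 (adjusted p 0.22). Without the parental PNAs-A15 array 32 were called, all lower, where 8.73% of all genes were called lower. MKI67 and CDC6 are among these 32, and nothing is read from their calls. With median scaling there were 12 calls, and on unnormalized signals 6. Without any filter on dim probes 0 genes passed the threshold in this comparison, in these lists or elsewhere. H4C3, at -2.07, and H2BC4, at -1.24, had the sign of this list's median. H4C8, H2BC5, H2BC21, H1-2 and H2BC12 had the opposite one.

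Of 22 measured genes linked to leaving the cell cycle 1 was higher past the threshold, against 0.835% of all genes. It was BTG1, an antiproliferative factor, at 2.26 ± 0.34 (limma's adjusted p 0.028). The list median was 0.57. The cyclin-dependent kinase inhibitors CDKN1B (p27) and CDKN1A (p21) lay at 0.95 ± 0.40 and -0.47 ± 0.34 (adjusted p 0.27 and 0.49), and RBL2, a pocket protein of quiescent cells, at 0.91 ± 0.35 (adjusted p 0.22). This call was lost with median scaling, on unnormalized signals and without the CSC-rich scramble array. Without the parental PNAs-A15 array 8 were called, 6 higher and 2 lower, CDKN1B (1.17) among the higher, against 10.5% higher and 8.73% lower of all genes.

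**Figure D5:**
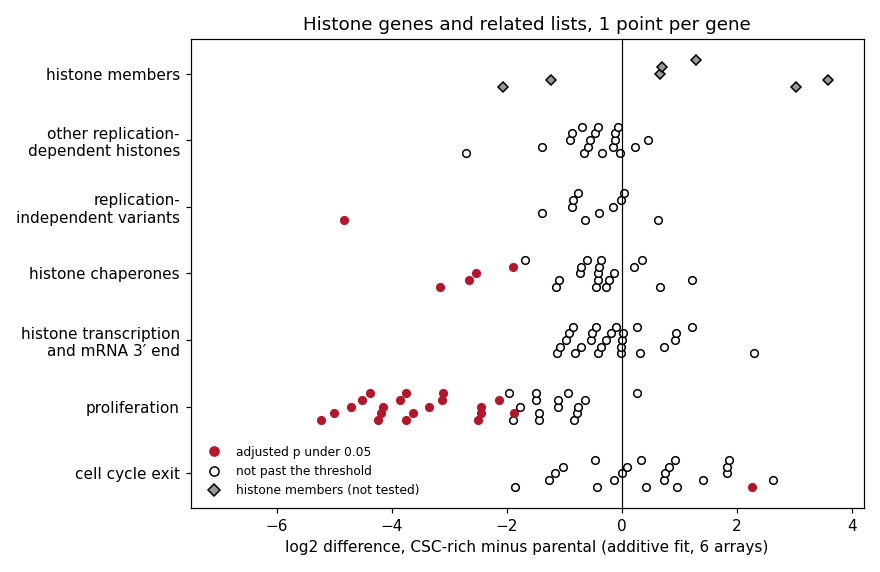
Fitted log2 difference, CSC-rich minus parental, of each measured gene in 7 lists, with 1 point per gene, red where limma's adjusted p was under 0.05 and grey diamonds for the histone members, which were not tested. The members spread from -2.07 to 3.58, 4 of the 18 other replication-dependent histones were detected on no CSC-rich array, and the proliferation list lies almost wholly below 0.

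Markers of the labelled cells were mixed. The epithelial keratins KRT8 and KRT19 were detected on all arrays, KRT7 on 1, and KRT18, CDH1 and EPCAM on none. Of the stem cell markers CD44, SOX2, ALDH1A1 and ABCG2 were measured and 0 of 4 passed the threshold, and 3 others (PROM1, NANOG and POU5F1) were below detection throughout. The immune markers PTPRC, CD3E and CD3D were not detected, and 3 of 7 in that list were measured. CD68 and CD14 were detected on all arrays, and LYZ on 1 CSC-rich and 1 parental array. CD68 averaged 12.35 in CSC-rich and 11.51 in parental cells. The summed linear level of these 3 was 4208 to 6435 over the CSC-rich arrays and 2060 to 7319 over the parental arrays. Of 7 fibroblast and endothelial markers 2 were measured (1245 to 1564 and 1260 to 5878). These were COL3A1 and PDGFRB, both detected on all arrays. COL1A2 was detected on 1 array, and COL1A1, PECAM1, VWF and CDH5 on none. The summed level of the proliferation list was 43740 to 45600 over the CSC-rich arrays and 153400 to 180900 over the parental arrays. The part of other cells and of proliferation in the histone differences was not tested.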

How the data were processed

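Total RNA of 6 samples was hybridised to Illumina HumanHT-12 v4 arrays, 1 array per group. For every probe and array the authors deposited an intensity (AVG_Signal, linear) with its detection p-value, per the file headers. The submitters' processing notes name GenomeStudio 2011.1, and what else was done is unknown here. The deposited series matrix held the same intensity values in 100% of cells. Probes were named through GEO's platform annotation (30113 of 47323 with 1 symbol, 8 with several and 17202 not listed), and 30074 matched the RefSeq gene table of GRCh38.p14, which changed 0 symbols.

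Signals were background-corrected with limma's normal-exponential model (limma 3.58.1, R 4.3.3, background inferred from detection p-values, offset 16), then quantile-normalized, and log2 values were taken. Probes detected on at least 2 of 6 arrays were kept (16023 with a symbol), and the brightest probe stood for its gene (12101 genes). limma's additive model of population and treatment left 2 residual degrees of freedom, with Benjamini-Hochberg adjustment across the whole gene table. Separate cultures are not stated, so a p-value reflects variation among these 6 arrays, which may be technical, and their number limits the precision. A gene not detected on any array of a group is given as at least N-fold apart, against the higher of its own level and the lowest detected level. The members and all lists were chosen with earlier results of these data known. Named genes were the members, up to 4 called genes with the largest differences per list, a fixed set, and the 3 nearest profiles. H2BC9, H2AC20, H4C12, H4C5, H3C6, H1-3, H2AC17, H3C12, H4C11, H2AX, H3-3A, MACROH2A1, MACROH2A2, ASF1A, CDK2, SYMPK, LSM10, HINFP and CDC6 were named after their values were seen. The scripts were tested on simulated data, and 12 alternatives were tried. Promoter sequences are RefSeq's, GRCh38.p14, with 7 of the 8 genes matched.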

Additional observations from a re-analysis of the deposited data

Results flagged for a closer look

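Some members lay on opposite sides of 0 in the 2 populations under all 3 scalings. With 1 array per group the difference between the populations was not tested, and the values rest on the parental PNAs-A15 array, which stood apart from the others. For PNAs-A15 minus untreated, H1-2 was at -0.40 in CSC-rich and 1.18 in parental cells, H2BC4 at -0.60 and 1.19, H2BC5 at -0.54 and 1.41, and H2BC12 at -0.20 and 0.67, in the same order of populations. The parental values shrank with the scaling: H2BC4 was at 0.33 with median scaling and 0.03 without normalization, and H2BC5 at 0.51 and 0.16. For PNAs-A15 minus scramble, H2BC12 was at -0.26 in CSC-rich and 0.84 in parental cells. No group held enough arrays to look for outlying samples.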

How the results depend on the processing

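For CSC-rich against parental cells, 279 genes passed the threshold, against 111 with median scaling, 21 with no normalization, 0 with no filter on dim probes (2954 at an unadjusted p under 0.05), 419 without either untreated array, 87 without either scramble array or the CSC-rich scramble array alone, and 2324 without either PNAs-A15 array or the parental one alone. In this additive model, leaving out 1 array of a treatment leaves its partner without weight in the population difference. The other 4 alternatives kept the count within 1.5 times. PNAs-A15 against scramble gave 35 calls without either untreated array and 0 otherwise; both other treatment contrasts gave 0 in all alternatives run. The median of the 7 members was 1.13 without the parental PNAs-A15 array or both PNAs-A15 arrays. The differences of the 7 members between populations kept their sign in all 12 alternatives, with H4C8 between 2.26 and 3.91, H2BC5 between 2.495 and 3.67, H2BC21 between 1.12 and 1.53, H1-2 between 0.34 and 1.13, H2BC12 between 0.44 and 0.995, H2BC4 between -1.62 and -0.49 and H4C3 between -2.15 and -2.04. For PNAs-A15 minus scramble, without the parental PNAs-A15 array, H2BC5 turned to -0.12, H2BC12 to -0.20 and H2BC21 to -0.27; H2BC21 was at -0.28 with median scaling and -0.28 with no normalization. Proliferation calls ranged from 0 (no filter) and 6 (no normalization) to 32. The causes were not tested. Contrasts whose treatment was left out have no value. Arrays were matched across populations only by treatment, through the treatment term of the additive fit. Each group holds 1 array and the labels give no replicate numbers, so no other pairing was possible. Levels of H2AC6, CSC-rich H2BC4 and parental H4C8 lie near the detection limit.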
